A study of Mus musculus with 8 samples.

Results

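The resting state of mouse embryonic fibroblasts that lack both Tbk1 and Ikbke was set against that of wild-type (WT) fibroblasts, gene by gene, over the 11955 autosomal genes among 12393 genes with a probe set of their own. The pair consists of 1 Affymetrix array of Tbk1-/- Ikbke-/- cells, called double-mutant cells below, and 1 array of Tbk1+/+ Ikbke+/+ cells, both taken 4 h after a mock transfection. The series holds 8 arrays in all, 1 for each of 4 genotypes (Tbk1-/- Ikbke-/-, Tbk1-/- Ikbke+/+, Tbk1+/+ Ikbke-/- and Tbk1+/+ Ikbke+/+) after mock transfection or after transfection with B-DNA, the synthetic duplex poly(dA-dT)-poly(dT-dA). Every array was made from total RNA of embryonic fibroblasts of the same mixed strain background, C57BL/6 x 129Ola, at the same time point. Mock-transfected cells had gone through the transfection procedure, so unstimulated means here without B-DNA, not untouched. With 1 array on each side no difference has a replicate check, no p-value is given, and nothing in the labels says how many cultures or embryos stand behind an array.

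Tbk1 and Ikbke encode 2 related protein kinases that sit downstream of the sensors of foreign nucleic acid. They phosphorylate the transcription factors Irf3 and Irf7, which switch on interferon beta, and they also feed into NF-kB signalling. Fibroblasts keep a low, constitutive interferon signal that holds some antiviral genes above zero without any stimulus, and mesenchymal cells differ in addition by the body region and the growth state of the culture they come from.

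Signals are MAS5 intensities, a summary over the probes of a probe set on a linear scale, and each array was multiplied so that its 2% trimmed mean became 500. Signals under 122, the 40th percentile on the common scale, were raised to that floor before a ratio was formed, so that a fold against such a value is a bound and is given as "at least". In the pair, 8654 autosomal genes reached the floor on 1 or both arrays and 7452 on both. A gene is called higher or lower here at a ratio of 2-fold or more, with 244, which is 2 times the floor, as the least value allowed on the brighter side.

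Tbk1 itself read 290.0 in double-mutant cells, 226 in Tbk1-/- cells, 472 in Ikbke-/- cells and 501 in WT cells, so both genotypes without the gene were below both genotypes with it. Its ratio in the pair, -0.79 on the log2 scale, missed the 2-fold limit. The Ikbke probe set was below the floor on all 8 arrays, in WT cells too, and checks nothing. The position of the 2 probe sets relative to the deleted sequence is not known here. Vim, the gene of the mesenchymal intermediate filament, was bright and close in both cell types, with 26369 in double-mutant cells and 24410.2 in WT cells. So was Col1a1, the main chain of type I collagen, with 27356 in double-mutant cells and 26349.8 in WT cells. Thy1, another defining fibroblast gene, was lower, with 1932 in double-mutant cells and 5184 in WT cells (-1.42).

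Several features of the arrays go along with the comparison. The double-mutant mock array was the dimmest of the 8 as deposited and needed a factor of 3.58, against 2.11 for the WT mock array. Xist, the RNA of the inactive X chromosome, read 209 in double-mutant cells and 3002 in WT cells, and the Y-linked gene Eif2s3y read 153 in double-mutant cells and 1.48 in WT cells, the pattern of male against female cells. Xist was also low in Ikbke-/- cells and high in Tbk1-/- cells, and a difference due to sex cannot be told apart from one due to Ikbke. The WT mock array further stood apart through macrophage genes. Of 32 measured macrophage and leukocyte markers, 21 reached 244 on it, against 4 on the double-mutant mock array, 3 on the Tbk1-/- one and 2 on the Ikbke-/- one. The signals of these 32 genes were also summed, with values below the floor raised to it. The sum was 6309.8 in double-mutant cells, 5982 in Tbk1-/- cells, 5819.9 in Ikbke-/- cells and 27109.5 in WT cells. Markers were measured if they reached the floor on the double-mutant or the WT mock array. A marker below the floor in double-mutant cells entered only through the WT array, so its ratio could not be positive. The counts, sums and medians of this list, here and below, therefore follow in part from how members entered. In a bulk sample, fewer cells of a type and less RNA per cell cannot be told apart.

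Between the 2 resting genotypes, 507 autosomal genes were higher in double-mutant cells (5.86% of the 8654) and 520 were lower (6.01%). The same rule picked 121 genes (1.41%) between the B-DNA and mock arrays of the double-mutant cells 66 (0.823%) between those of Tbk1-/- cells, 491 (6.18%) between those of Ikbke-/- cells and 494 (5.73%) between those of WT cells. The last 2 genotypes are the ones whose interferon-stimulated genes were high after B-DNA. The SD of the log2 ratios over genes was 0.71 for the resting pair, 0.38 between the 2 double-mutant arrays, 0.32 between the Tbk1-/- arrays, 0.66 between the Ikbke-/- arrays and 0.60 between the WT arrays. Against the same WT array, Tbk1-/- cells had 208 genes higher (2.52%) and 314 lower (3.8%), and Ikbke-/- cells had 213 higher (2.61%) and 294 lower (3.6%). Large differences leaned downward: 109 genes were at least 4-fold lower and 56 at least 4-fold higher in double-mutant cells, and at 8-fold the counts were 23 and 11. Among the 1185 genes that reached 16 times the floor, 128 (10.8%) were lower and 74 (6.24%) higher. The split of all counted genes depends on the scaling, with 49.4% of them on the higher side as scaled here, 36.1% when arrays were scaled to a common median, and 4.70% without further scaling of the deposited values. The last of these moves the median of all genes from 0.08 to -0.62 on the log2 scale, and directions of gene groups below are therefore meant relative to all genes. Counts in the gene lists below stand beside the shares over all genes, 5.86% higher and 6.01% lower.

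**Figure D1:**
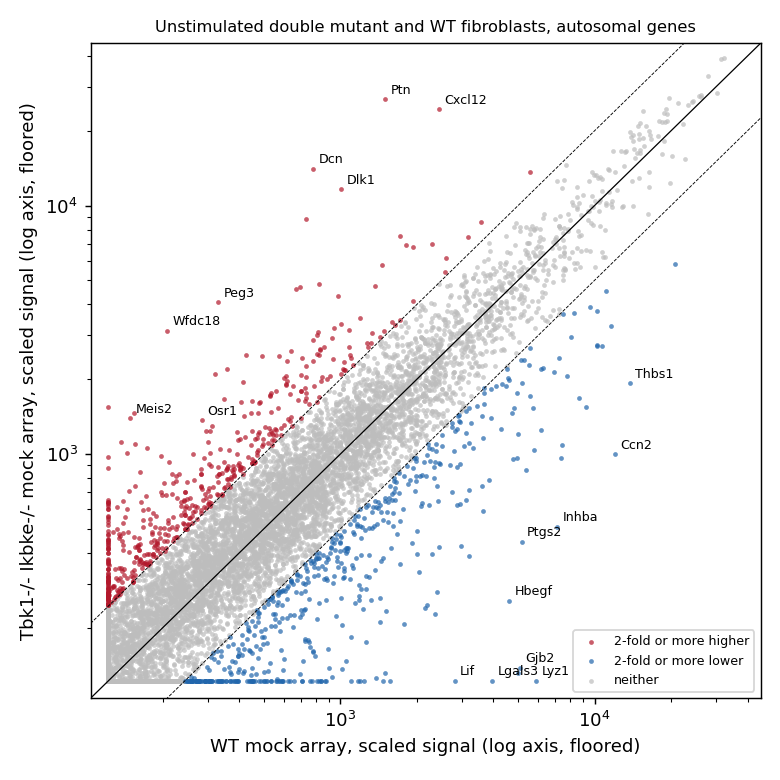
Scaled signal of each autosomal gene on the WT mock array (horizontal) and on the Tbk1-/- Ikbke-/- mock array (vertical), both axes logarithmic, with values below the floor drawn at it. The solid line marks equal signal and the broken lines 2-fold. The 507 genes higher in double-mutant cells lie above the band and the 520 lower ones below it. Named points include Dcn and Ptn above the band and Gjb2 and Hbegf below it.

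The highest ratio in double-mutant cells belonged to Dcn, which encodes decorin, a small leucine-rich proteoglycan that binds collagen fibrils. Dcn read 14062 in double-mutant cells, 557 in Tbk1-/- cells, 5049 in Ikbke-/- cells and 780.4 in WT cells, a log2 ratio of 4.17 over WT. Ptn, the gene of the heparin-binding growth factor pleiotrophin, read 26765 in double-mutant cells, a value below the floor in Tbk1-/- cells, 14476 in Ikbke-/- cells and 1498 in WT cells (4.16). Both genes were thus bright in double-mutant cells and at a middle to high level in Ikbke-/- cells, with the lowest signal in Tbk1-/- cells. Wfdc18, of the whey acidic protein family, behaved otherwise and was high in the double mutant alone, at 3139.7 in double-mutant cells, 233 in Tbk1-/- cells, 255 in Ikbke-/- cells and 207 in WT cells (3.92).

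The other genes with the highest measured ratios were of several kinds. Peg3, an imprinted zinc finger gene, and Dlk1, an imprinted transmembrane relative of Notch ligands, had log2 ratios of 3.62 and 3.54. Ccn3, a secreted matricellular protein, read 8863 in double-mutant cells, 481 in Tbk1-/- cells, 2933 in Ikbke-/- cells and 734 in WT cells (3.59). Cxcl12, the chemokine that binds Cxcr4, read 24480.3 in double-mutant cells, 16165 in Tbk1-/- cells, 8879.7 in Ikbke-/- cells and 2433 in WT cells (3.33), and here it was the WT array that lay lowest by far. The same held for Cd24a, a small surface glycoprotein (3.25), for Cp, the copper-carrying ferroxidase ceruloplasmin (3.03), and for Pdk4, a kinase that shuts down pyruvate dehydrogenase (2.82). The transcription factor genes Meis2 (3.23) and Gata6 (2.82) complete the 12. Of genes below the floor in WT cells, the brightest in the double mutant were Plac8 (at least 12.7-fold), the cartilage proteoglycan gene Epyc (at least 7.95-fold), the receptor gene Lifr (at least 7.16-fold), the ephrin receptor gene Ephb3 (at least 5.35-fold), Adam23 (at least 5.26-fold) and Ppp1r3c (at least 5.23-fold), which targets protein phosphatase 1 to glycogen.

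On the lower side, among genes at or above the floor on both arrays, the lysozyme gene Lyz2 had the lowest ratio at -5.25, with 131 in double-mutant cells, 146 in Tbk1-/- cells, 218 in Ikbke-/- cells and 4991 in WT cells. It is a macrophage and neutrophil gene, and it was high on the WT arrays only. Gjb2, the gap junction gene of connexin 26, had nearly the same ratio with another layout, at 138 in double-mutant cells, 8372 in Tbk1-/- cells, 4790.5 in Ikbke-/- cells and 5096 in WT cells (-5.21). The double-mutant array alone was low. Hbegf and Ereg, which encode ligands of the epidermal growth factor receptor, followed this second layout, with 257 in double-mutant cells, 5482 in Tbk1-/- cells, 3959.7 in Ikbke-/- cells and 4619 in WT cells for Hbegf (-4.17) and 227 in double-mutant cells, 5576 in Tbk1-/- cells, 1718 in Ikbke-/- cells and 2360.1 in WT cells for Ereg (-3.38).

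Inhba, which encodes the beta A subunit of activin, read 509 in double-mutant cells, 3269 in Tbk1-/- cells, 1918 in Ikbke-/- cells and 7147 in WT cells (-3.81). Ccn2, the connective tissue growth factor gene, read 998 in double-mutant cells, 14468 in Tbk1-/- cells, 11689 in Ikbke-/- cells and 12047 in WT cells (-3.59). Ptgs2, the inducible cyclooxygenase, read 444 in double-mutant cells, 8773 in Tbk1-/- cells, 1785 in Ikbke-/- cells and 5165 in WT cells (-3.54). The rest of the 12 lowest were Tnfrsf11b, the gene of the bone-protecting decoy receptor osteoprotegerin (-3.51), Cpxm2 (-3.47), the extracellular superoxide dismutase gene Sod3 (-3.17), the platelet-derived growth factor gene Pdgfb (-3.15) and the monocyte chemokine gene Ccl7 (-3.11). Below the floor in double-mutant cells, and so bounded, were Lyz1 (at least 48.3-fold lower), Lgals3, the gene of galectin-3 (at least 32.4-fold), the cytokine gene Lif, the thrombomodulin gene Thbd (at least 12.9-fold), the desmosome gene Pkp1 (at least 12.1-fold) and Crabp2, which carries retinoic acid (at least 10.1-fold). Lif and its receptor gene Lifr thus lay on opposite sides by their brightest probe sets. Lif was below the floor in double-mutant cells and read 2813 in WT cells. Lifr read 875 in double-mutant cells and was below the floor in WT cells. Further Lifr probe sets were dim, at 159 and 133 in double-mutant cells and below the floor in WT cells. Their log2 ratios were at least 0.38 and 0.13.

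The series was built around the interferon response, so a first question is whether genes of the interferon pathway stood lower before any stimulus. Of 31 interferon-stimulated genes that reached the floor, 6 were lower in double-mutant cells and 1 was higher, with a median log2 ratio of -0.32 against 0.08 over all genes. With the mean over all probe sets of a gene, that median was 0.00 relative to all genes. The 6 lower genes were Trim25, a ubiquitin ligase of the RNA-sensing pathway, Ifit1, which binds foreign RNA, the nucleotide hydrolase gene Samhd1, the chaperone gene Rtp4, the GTPase gene Gbp2 and the viperin gene Rsad2. A further 11 of the 42 genes on the array were below the floor in both cell types, where no difference can be read.

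In the resting WT culture all 6 read 755 or less. Ifit1 read 149 in double-mutant cells, a value below the floor in Tbk1-/- cells, 454 in Ikbke-/- cells and 600.0 in WT cells (-2.01), and Rtp4 read a value below the floor in double-mutant cells, a value below the floor in Tbk1-/- cells, 522 in Ikbke-/- cells and 449.7 in WT cells (at least 3.68-fold lower). In both, the genotypes without Tbk1 were low and those with Tbk1 higher. Trim25 was lowest in the double mutant, at 175 in double-mutant cells, 416 in Tbk1-/- cells, 528 in Ikbke-/- cells and 755 in WT cells (-2.11). Gbp2 was at least 3.22-fold lower, with a value below the floor in double-mutant cells and 393 in WT cells, and Rsad2 read 158 in double-mutant cells, 157 in Tbk1-/- cells, 123 in Ikbke-/- cells and 400.0 in WT cells (-1.34), high on the WT array alone. Samhd1 (-1.91) is uncertain, since further probe sets of it gave 0.28 and 0.57. The exception among the 31 was Ifi47, an interferon-induced GTPase gene, with 456 in double-mutant cells and values below the floor on the other 3 mock arrays. Irf7, the factor that amplifies the interferon response, read 262 in double-mutant cells and 216 in WT cells (0.28), and Irf3 read 1104 in double-mutant cells and 1178 in WT cells (-0.09).

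Next to these values stand those of the same genotypes after B-DNA, where the WT cells had responded. There, 30 interferon-stimulated genes were lower in the double mutant, against 7.27% of all genes measured in that pair, and the median log2 ratio was -4.07. Ifit1 then read 138 in double-mutant cells and 23925 in WT cells. All 6 genes lower at rest were among the 30. Over the resting WT array, the list's median was -0.65 in Tbk1-/- cells and -0.30 in Ikbke-/- cells. For MHC class I antigen presentation, 12 genes reached the floor and 2 were lower at rest. These were the class I heavy chain genes H2-K1, with 787 in double-mutant cells, 5236 in Tbk1-/- cells, 5001 in Ikbke-/- cells and 3843 in WT cells (-2.29), and H2-D1, with 423 in double-mutant cells, 2094 in Tbk1-/- cells, 1896 in Ikbke-/- cells and 2435 in WT cells (-2.52), in each of which the double-mutant array alone was low. Class I genes are close in sequence and vary between the parental strains, and the probes were not checked for this. Further H2-K1 probe sets gave -2.09 and -2.02, but a dimmer one, at 207 in double-mutant cells and 252 in WT cells, gave -0.29. The list's median was 0.01. Among 13 genes of the kinases, their adaptors and their substrates, Tradd, an adaptor of tumour necrosis factor receptors, was higher (1.11), none was lower and the median was -0.30.

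Genes driven by NF-kB, the transcription factor of inflammatory signalling, leaned to the lower side. Of 28 that reached the floor, 14 were lower in double-mutant cells and 1, the apoptosis inhibitor gene Birc2, was higher (1.79), with a median of -1.01. Relative to all genes this median was -1.09, against -0.58 with the mean over all probe sets of a gene and -0.29 with the double-mutant B-DNA array in place of the mock array. Besides Ptgs2, the largest differences were in the chemokine genes Ccl20 (at least 6.64-fold lower) and Ccl2 (-2.59), the stromelysin gene Mmp3 (at least 5.19-fold lower) and Csf1, the macrophage growth factor gene (-1.93). Ccl2 read 1538 in double-mutant cells, 4393 in Tbk1-/- cells, 4724 in Ikbke-/- cells and 9264 in WT cells, and Csf1 read 2052 in double-mutant cells, 9586 in Tbk1-/- cells, 6149 in Ikbke-/- cells and 7826 in WT cells, with the double-mutant value lowest in both. Ccl20 and Mmp3 were high on the WT array only. Over the same WT array, the list's median was 0.07 in Tbk1-/- cells and -0.15 in Ikbke-/- cells. The chemokine and cytokine list, which shares 6 of its lower genes with the NF-kB list, had 12 lower and 2 higher of 24, with a median of -1.07. Relative to all genes that is -1.15, and -0.28 with the mean over probe sets. Cxcl14 (at least 6.75-fold lower) was low in both genotypes without Tbk1, while Ccl9, like Cxcl12, was higher (1.63), with 2521 in double-mutant cells, 875 in Tbk1-/- cells, 977 in Ikbke-/- cells and 812 in WT cells. The macrophage markers were lower in the same direction, with 20 of 32 lower, 1 higher and a median of -1.72, which is -1.80 relative to all genes and -1.04 with the mean over probe sets. Their part in the chemokine and NF-kB values was not tested.

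Promoter sequences of a few of these genes are shown because the lists are defined by the factors that bind there. The windows run from 250 bases before to 50 bases after the gene start in the RefSeq annotation of the mouse genome, build GRCm38.p6, and are printed 5′ to 3′ on the strand of the gene. An interferon response element was searched as GAAANNGAAA and an NF-kB site as GGGNNTTTCC, on both strands, and a match says only that the letters are there. The Ifit1 window, at chr19:34640639-34640938 on the plus strand, holds 2 response elements on the opposite strand, in capitals, which begin 104 and 85 bases before the start. The Ccl20 window, at chr1:83116516-83116815 on the plus strand, holds 1 NF-kB match that begins 80 bases before the start.
Ifit1: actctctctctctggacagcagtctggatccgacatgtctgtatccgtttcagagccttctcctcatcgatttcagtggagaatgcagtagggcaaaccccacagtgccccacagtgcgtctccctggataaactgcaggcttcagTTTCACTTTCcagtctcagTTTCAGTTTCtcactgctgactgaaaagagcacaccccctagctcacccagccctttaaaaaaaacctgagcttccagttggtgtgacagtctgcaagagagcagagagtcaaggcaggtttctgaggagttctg
Ccl20: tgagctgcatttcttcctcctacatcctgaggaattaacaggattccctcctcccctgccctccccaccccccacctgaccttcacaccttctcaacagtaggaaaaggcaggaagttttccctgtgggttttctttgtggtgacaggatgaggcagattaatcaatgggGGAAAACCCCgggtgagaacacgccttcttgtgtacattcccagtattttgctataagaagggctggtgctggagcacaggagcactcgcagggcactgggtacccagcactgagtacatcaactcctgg
The response element was found in 15 of the 25 interferon-stimulated genes with a window in the table, in 3 of the 5 that were lower at rest, and in 3.44% of all promoters. The NF-kB match was in 9 of 24 NF-kB target genes (37.5%), in 5 of the 12 lower ones, and in 1.63% of all promoters. Trim25, Samhd1 and Ptgs2 had no match in their windows. Over all lower genes with a window the 2 motifs were present in 4.75% and 3.75%, and over all higher ones in 3.93% and 1.97%. Counted by gene in the same way, the shares were 3.87% and 2.10% over all autosomal genes at or above the floor.

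Immediate early genes, which serum, growth factors and stress switch on within minutes, differed in 1 direction. Of 36 that reached the floor, 23 were lower in double-mutant cells, none was higher, and the median was -1.19. In 21 of the 23 the double-mutant array was at least 2-fold under all the other 3 mock arrays, against 47.9% of all lower genes. Ccn1, a matricellular gene that belongs to this class, read 965 in double-mutant cells, 9047 in Tbk1-/- cells, 5041 in Ikbke-/- cells and 7412 in WT cells (-2.94). Myc, the growth-promoting transcription factor gene, read 211 in double-mutant cells, 2514 in Tbk1-/- cells, 1364 in Ikbke-/- cells and 1435 in WT cells (-2.76), and Dusp6, the phosphatase that restrains Erk, read 234 in double-mutant cells, 1773 in Tbk1-/- cells, 1063 in Ikbke-/- cells and 1517 in WT cells (-2.70). Arc (at least 5.80-fold lower) and Sgk1 (-2.21), a kinase gene induced by serum and glucocorticoids, followed. In these 5 genes the double-mutant cells were lowest and Tbk1-/- cells highest, with a value below the floor in double-mutant cells, 2623 in Tbk1-/- cells, 1992 in Ikbke-/- cells and 708 in WT cells for Arc. With values below the floor raised to it, the signals of these 36 genes were summed. The sum was 25555 in double-mutant cells, 96206 in Tbk1-/- cells, 71481 in Ikbke-/- cells and 61400.4 in WT cells. Over the same WT array, 11 genes of the list were higher and none lower in Tbk1-/- cells, and 6 were higher and none lower in Ikbke-/- cells.

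The serum response factor acts on many of these genes through a CArG box, and its own gene Srf read 345 in double-mutant cells, 1048 in Tbk1-/- cells, 715 in Ikbke-/- cells and 872 in WT cells (-1.34), although a further Srf probe set gave -0.46. A search for that box was added after the values were seen. It was found in 3 of 28 immediate early genes with a window, Srf, Zfp36 and Egr2. All 3 were lower in double-mutant cells, as were 18 of the 28. With any start of a gene counted, the box was in 1.64% of autosomal genes at or above the floor, and it was in 1.63% of all promoters. The Srf window lies at chr17:46556113-46556412 on the minus strand, with boxes that begin 82 and 62 bases before the start. The window of Zfp36, which encodes an RNA-binding protein that destabilises cytokine transcripts, lies at chr7:28379179-28379478 on the minus strand, with 1 box that begins 58 bases before the start. Boxes are in capitals.
Srf: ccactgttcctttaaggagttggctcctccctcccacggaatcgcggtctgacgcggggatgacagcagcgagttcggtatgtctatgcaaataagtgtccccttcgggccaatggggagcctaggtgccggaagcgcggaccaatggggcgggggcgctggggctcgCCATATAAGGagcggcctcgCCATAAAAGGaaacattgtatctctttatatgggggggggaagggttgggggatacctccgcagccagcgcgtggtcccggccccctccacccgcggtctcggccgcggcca
Zfp36: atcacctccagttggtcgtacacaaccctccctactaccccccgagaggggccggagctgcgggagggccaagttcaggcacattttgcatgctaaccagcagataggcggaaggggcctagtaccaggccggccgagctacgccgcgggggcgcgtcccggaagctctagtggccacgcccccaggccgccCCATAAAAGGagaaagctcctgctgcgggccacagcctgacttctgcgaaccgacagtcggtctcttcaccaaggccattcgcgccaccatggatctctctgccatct
Zfp36 was lower at -1.17, with 614 in double-mutant cells, 2007 in Tbk1-/- cells, 2532 in Ikbke-/- cells and 1384 in WT cells.

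Growth factors and their receptors were split, with 8 lower and 4 higher of 33 and a median of -0.30. The lower ones were the receptor ligands Hbegf, Ereg and Pdgfb, the vascular growth factor gene Vegfa, Gas6, and binding proteins of the insulin-like growth factors, Igfbp3 (at least 4.85-fold), Igfbp6 (-2.19) and Igfbp2. Igfbp2 was among the brightest of all lower genes, at 5845 in double-mutant cells, 22427 in Tbk1-/- cells, 14788 in Ikbke-/- cells and 20754 in WT cells. The higher ones were Ptn, the hepatocyte growth factor gene Hgf, Igfbp5 and Igf1 (1.36). Hgf read 1059 in double-mutant cells, 124 in Tbk1-/- cells, 199 in Ikbke-/- cells and 173 in WT cells (2.61), high in the double mutant alone. Igfbp5 read 7515 in double-mutant cells, a value below the floor in Tbk1-/- cells, 3269.8 in Ikbke-/- cells and 1711 in WT cells (2.13).

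Of 35 genes of the TGF-beta and bone morphogenetic protein pathways, 8 were lower and 1 was higher (median -0.22). The lower ones included Inhba, Gdf10 (at least 6.33-fold), the latent TGF-beta binding protein gene Ltbp2 (-2.32), the inhibitory Smad7 (-2.15) and the ligand gene Tgfb1 (-1.58). The target gene Tgfbi was higher (1.80), although 1 further probe set gave 0.27. Among 33 genes of the Wnt, hedgehog and Notch pathways, 8 were higher and 5 lower (median 0.03). The Wnt receptor gene Fzd2 read 4838 in double-mutant cells, 709 in Tbk1-/- cells, 522 in Ikbke-/- cells and 823 in WT cells (2.56), and Gli2, a transcription factor of hedgehog signalling, reached the floor in the double mutant only (at least 3.40-fold higher). The secreted Wnt antagonist gene Sfrp2 was higher (1.82), with 6834 in double-mutant cells, a value below the floor in Tbk1-/- cells, 8152 in Ikbke-/- cells and 1929.6 in WT cells, and Notch3 was higher too (1.44). Lower were Dkk3 (-1.49) and Wnt11 (-1.10). Less certain were Notch1 (-1.18), Wnt5a (-2.31) and Jag1 (-2.41), of which further probe sets gave -0.60, -0.59 and -0.70. Sfrp1 was higher at 2.02, with 1 further probe set at 0.63.

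Genes of the extracellular matrix lay on both sides. Of 22 small leucine-rich proteoglycan and matricellular genes, 11 were lower and 5 higher (median -0.86). Relative to all genes the median was -0.94, and -0.34 with the mean over probe sets. Dcn, Ccn3 and Lum, which encodes the decorin relative lumican, were higher, and so were Tgfbi and the large proteoglycan gene Vcan (1.90). Lum read 5773 in double-mutant cells, a value below the floor in Tbk1-/- cells, 4816 in Ikbke-/- cells and 1459.7 in WT cells (1.98). On the lower side stood Ccn2, Ccn1, Ccn5 (-3.04), Thbs1 (-2.84) and Prelp (-3.10). The thrombospondin gene Thbs1 read 1925 in double-mutant cells, 18616 in Tbk1-/- cells, 8889 in Ikbke-/- cells and 13763 in WT cells, and Prelp, another leucine-rich proteoglycan, read 207 in double-mutant cells, 2549.5 in Tbk1-/- cells, 3329 in Ikbke-/- cells and 1776 in WT cells. Members of the same family therefore lay on opposite sides, with Ccn3 against Ccn1, Ccn2 and Ccn5, and Dcn and Lum against Prelp.

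Of 23 collagen genes, 8 were lower and 1 was higher (median -0.26). All 8 were also 2-fold lower in the double mutant after B-DNA, against 51.2% of all lower genes. The fibril-associated Col12a1 read 1525 in double-mutant cells, 1482 in Tbk1-/- cells, 4045 in Ikbke-/- cells and 4803 in WT cells (-1.66), and Col18a1 read 627 in double-mutant cells, 655 in Tbk1-/- cells, 2879 in Ikbke-/- cells and 2953 in WT cells (-2.24), both low without Tbk1. Col5a3 (-2.63) was low in the 2 Ikbke-/- genotypes, and the cartilage collagen gene Col10a1 (at least 4.83-fold lower) reached the floor on the WT array only. Col2a1, the main collagen of cartilage, ranged widely, at 1111 in double-mutant cells, 4891 in Tbk1-/- cells, 23463 in Ikbke-/- cells and 3207 in WT cells (-1.53), with Ikbke-/- cells far on top, as did the cartilage proteoglycan gene Acan, at 136 in double-mutant cells, 434 in Tbk1-/- cells, 4651 in Ikbke-/- cells and 1009.8 in WT cells (-2.89). Col15a1 was the higher one (1.10). Matrix proteases and their inhibitors counted 6 lower and 3 higher of 23 (median -0.38). The aggrecan-cleaving proteases Adamts1 and Adamts5 were higher, with 4693 in double-mutant cells, 808 in Tbk1-/- cells, 902 in Ikbke-/- cells and 693 in WT cells for Adamts1 (2.76) and a log2 ratio of 2.57 for Adamts5, as was Mmp11 (1.59). Plaur, the urokinase receptor gene, read 396 in double-mutant cells, 5214 in Tbk1-/- cells, 2338 in Ikbke-/- cells and 2294 in WT cells (-2.53), and the metalloprotease inhibitor gene Timp3 read 3264 in double-mutant cells, 12079 in Tbk1-/- cells, 13754 in Ikbke-/- cells and 11560.2 in WT cells (-1.82). Ctsk, the collagen-degrading cathepsin K gene, was lower at -1.95, and Mmp13 was at least 2.74-fold lower.

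Adhesion genes leaned lower, with 9 lower and 2 higher of 28 integrins and adhesion molecules (median -0.40). Itga5, the fibronectin receptor subunit gene, read 959 in double-mutant cells, 5906 in Tbk1-/- cells, 3340.2 in Ikbke-/- cells and 4944 in WT cells (-2.37), and the hyaluronan receptor gene Cd44 read 1535 in double-mutant cells, 8052 in Tbk1-/- cells, 5850.2 in Ikbke-/- cells and 5724 in WT cells (-1.90). Itga6 (-1.62) was below the floor in Tbk1-/- cells and low in the double mutant, and Itga7 (-1.70) was low in both Ikbke-/- genotypes. Mcam was lower (-2.02), and Cd24a and Cdh3 (1.11) were higher. Of 22 smooth muscle and myofibroblast genes, 5 were lower and 1 was higher (median -0.21). The contractile genes Acta2 and Tagln, which define the type, were close in both cell types, at 25476 in double-mutant cells and 23304 in WT cells for Acta2 and 15838 in double-mutant cells and 20129.6 in WT cells for Tagln. The lower ones were the pericyte proteoglycan gene Cspg4 (-2.33), Csrp1 (-2.31), Mcam, Srf and the focal adhesion gene Vcl (-1.17).

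**Figure D2:**
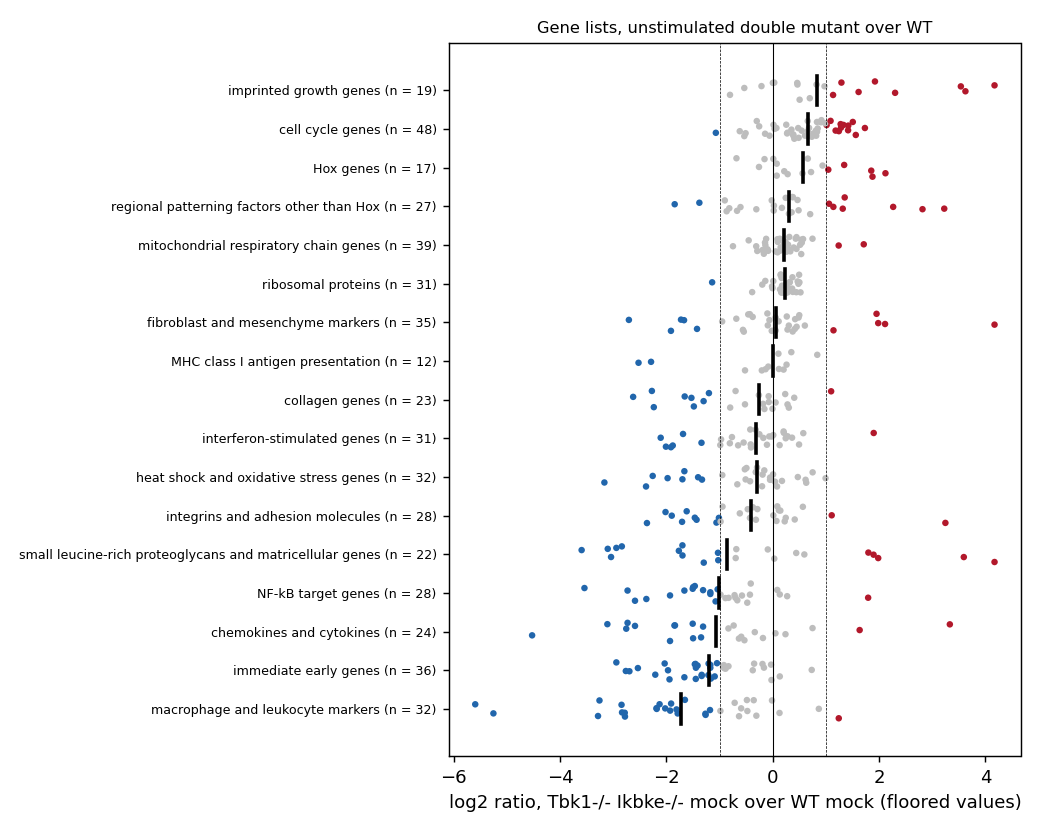
Log2 ratio of the Tbk1-/- Ikbke-/- mock array over the WT mock array for each member at or above the floor of 17 gene lists, 1 point per gene, red where counted higher and blue where counted lower. Black bars are list medians, broken lines mark 2-fold, and n is the number of genes. Macrophage markers, immediate early genes, chemokines and NF-kB targets have their medians at or beyond -1, and imprinted, cell cycle and Hox genes have theirs above 0.5.

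Genes that mark fibroblasts as such were present in both cell types, and the list as a whole was balanced, with 5 higher and 5 lower of 35 and a median of 0.05. Besides Dcn and Lum, the basement membrane gene Fbln1 (2.11), the homeobox gene Meox1 (1.14) and Snai2, a factor of mesenchymal transition (at least 3.87-fold), were higher. Mfap4 (-2.71), S100a4 (-1.91), Snai1 (-1.72), Mfap5 (-1.67) and the surface marker Thy1 (-1.42) were lower. Thy1 read 1932 in double-mutant cells, 2763 in Tbk1-/- cells, 2504 in Ikbke-/- cells and 5184 in WT cells, and S100a4 read 2712 in double-mutant cells, 10305 in Tbk1-/- cells, 3684 in Ikbke-/- cells and 10219 in WT cells, the first highest in WT cells and the second low in both Ikbke-/- genotypes.

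Genes of body position that differed were mostly higher in the double mutant. Of 17 Hox genes at or above the floor, which set position along the body axis, 5 were higher and none lower (median 0.56). A gene below the floor in WT cells entered only through the double-mutant array, so its ratio could not be negative. The reverse holds for genes below the floor in double-mutant cells. Hoxa5, Hoxa2, Hoxb9 and Hoxb3 were of the first kind, so the positive median follows in part from how members entered. Of the 17, 7 reached 2 times the floor in double-mutant cells and 3 in WT cells. Hoxa5 read 531 in double-mutant cells and was below the floor on the other 3 mock arrays (at least 4.35-fold), and so was Hoxa2 (at least 2.54-fold). Hoxb9 (at least 3.67-fold), Hoxb3 (at least 3.61-fold) and Hoxb2 (1.05) completed the count, 4 of the 5 also 2-fold higher after B-DNA. The other 14 Hox genes on the array were below the floor on both arrays. Of 27 further patterning factors, 7 were higher and 2 lower (median 0.30). Meis2, whose protein binds DNA together with Hox proteins, read 1393 in double-mutant cells, 142 in Tbk1-/- cells, 318 in Ikbke-/- cells and 149 in WT cells (3.23), and Osr1, a factor of limb and kidney mesenchyme, read 1369.6 in double-mutant cells, 187 in Tbk1-/- cells, 253 in Ikbke-/- cells and 285 in WT cells (2.27). Gata6 read 1013 in double-mutant cells, 364 in Tbk1-/- cells, 230.0 in Ikbke-/- cells and 144 in WT cells (2.82). Foxc1 (1.35) and Pax9 (at least 2.49-fold) were higher, while Foxc2 (-1.38) and, with 1 further probe set at -0.67, Msx1 (-1.84) were lower. With the mean over all probe sets of a gene in place of the brightest one, the medians of both lists were 0.00 relative to all genes.

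Imprinted growth genes, active from 1 parental allele and mostly found in embryonic tissue, had 8 higher and none lower of 19 (median 0.82). All 8 were 2-fold higher after B-DNA too, against 59.0% of all higher genes. Peg3 read 4081 in double-mutant cells, 788 in Tbk1-/- cells, 866 in Ikbke-/- cells and 331 in WT cells, and Dlk1 read 11669.8 in double-mutant cells, 2981 in Tbk1-/- cells, 8695 in Ikbke-/- cells and 1005 in WT cells, so that WT cells were lowest in both. Nnat, an imprinted membrane protein gene, reached 244 in the double mutant only (at least 4.93-fold). The growth inhibitor gene Cdkn1c (1.92) and Sgce (1.61), next to Peg10 in an imprinted cluster, were higher as well, and so was Dcn, which is imprinted in the mouse placenta. Igf2, the imprinted fetal growth factor gene, did not reach the limit, at 3570.2 in double-mutant cells, 769.6 in Tbk1-/- cells, 5745 in Ikbke-/- cells and 6231 in WT cells (-0.80), and was lowest in Tbk1-/- cells. Over the same resting WT array, 4 genes of the list were higher and 5 lower in Tbk1-/- cells (median 0.00), and 7 were higher and none lower in Ikbke-/- cells (median 0.25).

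Markers of other cell types were looked at because a fibroblast culture can hold other cells. Lyz1 read 5903 in WT cells and was below the floor in each mutant genotype, although its probes may also detect related sequences. C1qa and C1qb, which encode complement subunits made by macrophages, read 1191 and 1169 in WT cells and were below the floor in the other 3 genotypes (at least 9.75-fold and 9.57-fold). Ms4a7 was at least 7.18-fold lower. In all 20 lower macrophage markers the WT array was at least 2-fold above all 3 mutant arrays, against 14.8% of all lower genes. The list's median over the WT array was -1.58 in Tbk1-/- and -1.73 in Ikbke-/- cells. The single higher member was Cd74, the invariant chain of MHC class II (at least 2.37-fold), at 289 in double-mutant cells. On the B-DNA arrays, where the WT signals of these genes were lower, 11 of the 20 were still 2-fold lower and the median was -0.55.

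Markers of other blood cells, endothelium, epithelium, neural cells and skeletal muscle were mostly below the floor on both arrays. Of 18 markers of other blood cells, 7 reached the floor and none differed. Of 18 endothelial markers 8 did, with the vascular receptor genes Flt1 (at least 6.20-fold) and Eng (-1.57) lower and Ramp2 higher (1.97), while the defining genes Cdh5 and Pecam1 read below 125 in both. Of 27 epithelial markers 11 reached it, with Pkp1 and Sfn (at least 2.11-fold) lower and Epcam and Cdh1 below the floor. Of 23 neural markers 11 did, with Stmn2 lower (-1.49). Of 25 skeletal muscle markers 5 did, with the actin gene Acta1 lower (at least 4.83-fold) and Ckm higher (1.10), while Myod1 and Myog were below the floor. The adipocyte list had 1 higher, the glucose transporter gene Slc2a4 (at least 2.22-fold), and 1 lower, Cebpb (-1.21), of 16, and the cartilage and bone list 1 higher, Mef2c (1.62), and 1 lower, Acan, of 12. In lists this short, 1 gene in a direction is near the shares over all genes, 5.86% higher and 6.01% lower. Complement and coagulation genes had 5 higher and 2 lower of 14, led by Thbd on the lower side. The initiating protease genes C1s1 (1.72) and C1ra (1.53), tissue factor F3 (1.69) and the complement inhibitor gene Cd59a (1.19) were higher, and so was Tfpi (2.01), of which further probe sets gave 0.60 and 0.95.

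Cell cycle genes stood above all genes as a group. Of 48 at or above the floor, 12 were higher and 1 was lower in double-mutant cells (median 0.66). In all 12 the double-mutant array was at least 2-fold above the other 3, against 50.7% of all higher genes. Kif20a, a kinesin of cell division, read 684 in double-mutant cells, 150.4 in Tbk1-/- cells, 131 in Ikbke-/- cells and 206 in WT cells (1.73). The centromere genes Cenpf (1.56) and Cenpa (1.51) and the spindle checkpoint genes Bub1 (1.42) and Bub1b (1.42) followed. Cenpa read 1033 in double-mutant cells, 247 in Tbk1-/- cells, 164 in Ikbke-/- cells and 364 in WT cells, so that Ikbke-/- cells were lowest and double-mutant cells highest. Over the same WT array, none was higher and 1 lower in Tbk1-/- cells (median -0.18), and none was higher and 19 were lower in Ikbke-/- cells (median -0.66). Ccnd1, the cyclin of early cell cycle entry, was the lower one (-1.07) and low in both genotypes without Tbk1, but a further probe set of it gave 0.01. Of 29 p53 targets, senescence genes and cell cycle inhibitors, 6 were higher and 4 lower (median 0.18). Cdkn1b, the inhibitor p27, was at least 5.16-fold higher, and Sesn1 (1.56), Trp53inp1 (1.36) and Glb1 (1.30) were higher. Igfbp3, Pmaip1 (at least 3.71-fold) and Fas (at least 2.42-fold) were lower, and so was Mdm2 (-1.35), with a further probe set at -0.67.

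Stress and metabolic genes differed in part. Of 32 heat shock and oxidative stress genes, 8 were lower and none higher (median -0.30). Of these, 7 of the 8 were 2-fold lower after B-DNA too, against 51.2% of all lower genes. Hmox1, the haem-degrading enzyme, read 1672 in double-mutant cells, 10491 in Tbk1-/- cells, 9960.3 in Ikbke-/- cells and 8720.2 in WT cells (-2.38), and the metallothionein gene Mt2 read 2728 in double-mutant cells, 12492 in Tbk1-/- cells, 13942 in Ikbke-/- cells and 10742 in WT cells (-1.98). Srxn1 (-2.26) and Txnrd1 (-1.70), targets of the antioxidant factor Nrf2, were lower alongside Sod3. Of 35 genes of the unfolded protein and amino acid responses, Nupr1 (-1.85), Cth (-1.64) and Cebpb were lower and none was higher (median -0.42). Over all genes 6.01% were lower, a share not far from this count. Of 23 cholesterol genes, 4 were lower, Msmo1 (-1.36), Fdps (-1.14), Hsd17b7 (-1.13) and Idi1 (-1.07), with a median of -0.19. Over the same WT array the cholesterol list had medians of 0.38 in Tbk1-/- cells and 0.77 in Ikbke-/- cells. None of the 4 was 2-fold lower after B-DNA.

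Glycolysis and hypoxia genes had 6 higher and 3 lower of 31 (median 0.26). The neuronal-type glucose transporter gene Slc2a3 read 556 in double-mutant cells, 130.4 in Tbk1-/- cells, a value below the floor in Ikbke-/- cells and 142 in WT cells (1.97), and the oxygen-sensing enzyme gene Egln3 (1.78), Bnip3 (1.68), Pdk1 (1.20) and, with a further probe set at 0.33, Mxi1 (1.14) were higher. Vegfa (-1.93) was lower, and Slc2a1 (-1.02) was lower with a further probe set at -0.48. Of the 6 higher genes 1 was also 2-fold higher after B-DNA. Of 39 respiratory chain genes 2 were higher, Ndufa5 (1.71) and Ndufa4 (1.24), with a median of 0.21. Of 31 ribosomal protein genes 1 was lower, Rpl12 (-1.14), with a median of 0.23, and of 26 autophagy and lysosome genes none differed, with a median of 0.24. Over all genes 5.86% were higher and 6.01% lower, and the respiratory chain, ribosomal and lysosome counts did not exceed those shares.

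Some list medians, taken relative to all genes, moved with the choice of probe set or array. With the mean over probe sets, the median was -0.12 against -0.48 as reported for integrins and adhesion molecules, -0.12 against -0.38 for growth factors, -0.09 against -0.30 for the TGF-beta list, -0.21 against -0.46 for matrix proteases, -0.11 against -0.29 for smooth muscle genes, -0.11 against -0.27 for cholesterol genes and -0.29 against -0.50 for the unfolded protein list. For the kinases and their adaptors it was -0.12 against -0.38. With the double-mutant B-DNA array in place of the mock array, the glycolysis and hypoxia median was on the other side of all genes, at -0.20 against 0.18, and so was that of the Wnt, hedgehog and Notch list, at 0.21 against -0.05. The collagen median was -0.73 against -0.34 there, the unfolded protein median -0.27 against -0.50, and the patterning median 0.03 against 0.22.

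Each of the counted genes was also placed by its floored levels on the 4 mock arrays. Classes were filled in the order WT array apart, double-mutant array apart, by Tbk1 and by Ikbke. A gene meeting several rules counts only in the first. In 257 of the 507 higher genes (50.7%) and in 249 of the 520 lower ones (47.9%), the double-mutant array was at least 2-fold away from all 3 others and the WT array was not. Genes meeting both rules, such as Peg3 and Inhba, are counted with the WT array. The brightest lower genes of this class were Igfbp2, Thbs1, Timp3, Mt2 and others already given. The WT array was apart in 14 higher and 77 lower genes, which include the macrophage markers, Inhba and, on the higher side, Cxcl12 and Dlk1. Of the genes left, 6 higher and 34 lower ones had both arrays without Tbk1 2-fold from both arrays with it. Aqp1, a water channel gene, was an example at 744 in double-mutant cells, a value below the floor in Tbk1-/- cells, 2336 in Ikbke-/- cells and 3612 in WT cells (-2.28), and so was the matrix gene Aspn, at 1440.4 in double-mutant cells, 186 in Tbk1-/- cells, 5018 in Ikbke-/- cells and 2941 in WT cells (-1.03). Of the genes then left, 26 higher and 20 lower ones had both Ikbke-/- arrays 2-fold from both Ikbke+/+ arrays, among them Ptn, Sfrp2, S100a4 and Ccn4 (-1.70). For the last class the sex of the embryos cannot be told apart from the genotype. The other 204 higher and 140 lower genes fell into none of these classes.

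**Figure D3:**
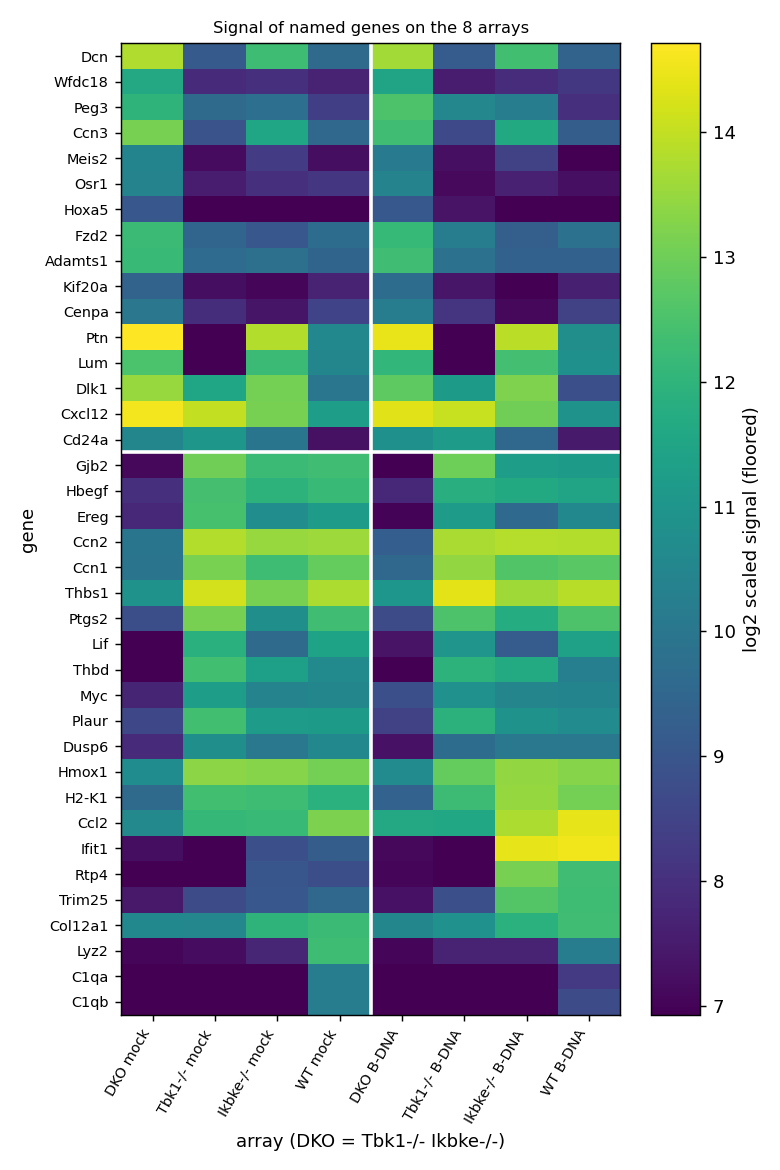
Log2 scaled signal of 38 genes on the 8 arrays, mock arrays left and B-DNA arrays right, each set running through the Tbk1-/- Ikbke-/- (DKO), Tbk1-/-, Ikbke-/- and WT arrays. Genes above the white line were higher in double-mutant cells at rest, genes below it lower, and values under the floor are drawn at it. Rows such as Dcn and Gjb2 look alike in both sets, while Ifit1, Rtp4 and Trim25 are high on the B-DNA arrays of Ikbke-/- and WT cells.

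The B-DNA arrays of the same 2 genotypes offer a second pair that shares no array with the first. In it, 743 autosomal genes (8.44% of 8806) were higher and 640 (7.27%) lower in double-mutant cells. Of the 507 genes higher at rest, 299 (59.0%) were 2-fold higher there as well, 473 had the same sign, and 7 were 2-fold lower. Of the 520 genes lower at rest, 266 (51.2%) were 2-fold lower there, 463 had the same sign, and 1 was 2-fold higher. WT cells answer B-DNA, so the second pair mixes resting and response differences. Of the resting differences, 104 higher and 83 lower genes had both double-mutant arrays at least 2-fold away from all 6 other arrays, among them Dcn, Wfdc18, Meis2 and Hoxa5 on the higher side and Gjb2, Hbegf, Ereg, Ccn2 and Thbs1 on the lower side.

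The lists were repeated to different degrees in the second pair. All 8 imprinted genes, 9 of 12 cell cycle genes and all 8 lower collagen genes were 2-fold apart in the same direction. Of the 23 lower immediate early genes 10 were, with medians of -1.19 at rest and -0.67 after B-DNA. Fos and Egr1, which encode transcription factors of the first response to serum, were among those not repeated. Fos read 608 in double-mutant cells and 1406 in WT cells at rest and 740.3 in double-mutant cells and 695 in WT cells after B-DNA, and Egr1 read 2959 in double-mutant cells and 8068 in WT cells at rest and 4863 in double-mutant cells and 5592 in WT cells after B-DNA. Of the 14 lower NF-kB target genes 5 were repeated. Cxcl1 was lower at rest (-1.51) but at 0.16 after B-DNA, when it read 1078 in double-mutant cells and 967 in WT cells.

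**Figure D4:**
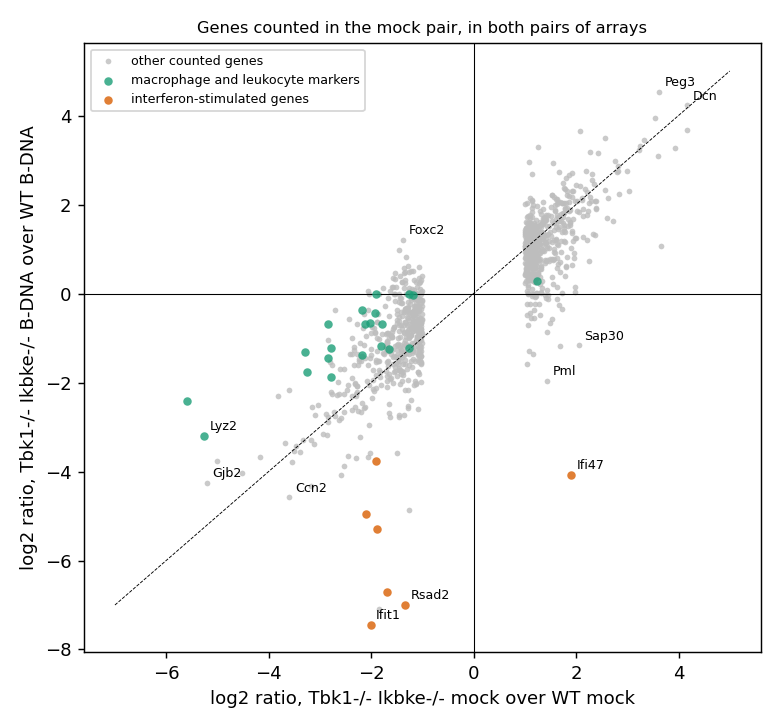
Log2 ratio of double-mutant over WT cells for the genes counted in the resting pair, at rest (horizontal) and after B-DNA (vertical), with equal ratios on the broken line. Higher genes lie mostly in the upper right and lower genes in the lower left. The 20 lower macrophage markers (green) lie above the line of equal ratios, while Cd74, the higher one, lies below it. Interferon-stimulated genes (orange) lie far below it.

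Ratios were finally arranged by chromosome, over the 7452 genes at or above the floor on both arrays. The median was highest on chromosome 6, at 0.33 with 73.0% of its 400 genes above 0, followed by chromosomes 15 at 0.24 and 10 at 0.15, and lowest on chromosome 4 at -0.07, against 0.07 for all genes. On chromosome 6, 69 of 486 genes at or above the floor on 1 array were higher (14.2%) and 18 lower (3.70%). The B-DNA pair gave the same first 3 chromosomes, at 0.37, 0.26 and 0.22. Ptn, Cxcl12, Pdk4, Hoxa5 and Ndufa4 lie on chromosome 6. Against the single mutants the chromosome 6 median of the double-mutant mock array was 0.39 over Tbk1-/- and 0.43 over Ikbke-/- cells. Tbk1-/- and Ikbke-/- cells had chromosome 6 medians of -0.03 and -0.04 over WT, and between the 2 double-mutant arrays all chromosome medians lay between -0.03 and 0.04. Around the targeted genes themselves, 2 of the 40 nearest measured genes were higher and 3 lower for Tbk1 on chromosome 10 (12.5%), and 2 were higher and 4 lower for Ikbke on chromosome 1 (15.0%), against 11.9% over all autosomal genes. Lyz1, Lyz2 and Mdm2 are the 3 lower neighbours of Tbk1, and Prelp (-3.10) is one of those of Ikbke.

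**Figure D5:**
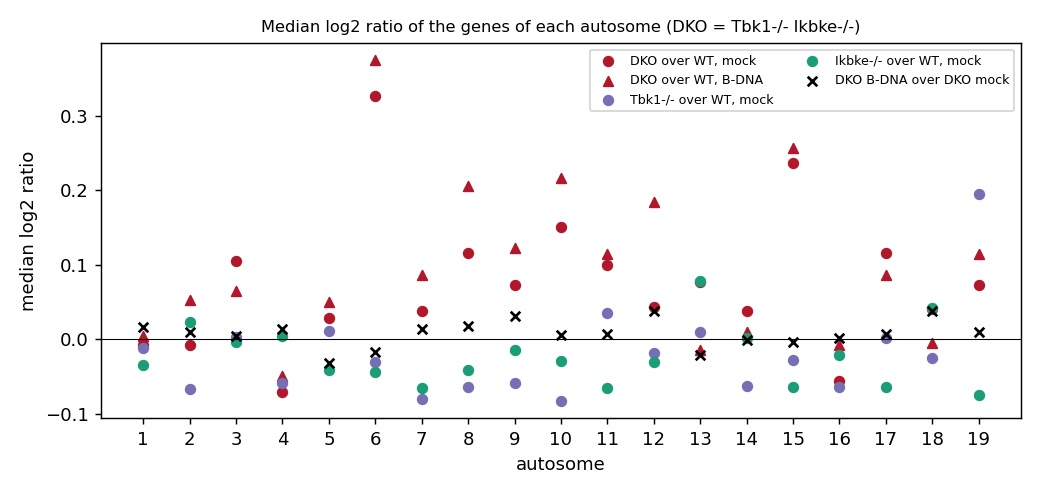
Median log2 ratio over genes at or above the floor on both arrays, for each autosome and 5 pairs of arrays (DKO stands for Tbk1-/- Ikbke-/-). In both pairs of double-mutant over WT arrays chromosomes 6, 15 and 10 are on top, while the single mutants over WT and the 2 double-mutant arrays over each other stay near 0 there.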

How the data were processed

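Expression was measured on 8 one-colour Affymetrix arrays, 1 per genotype and treatment. Per the labels, the values the authors deposited come from MAS5, and the design text gives Microarray Suite 5.0. Each is 1 linear intensity for a probe set. No source used here gives a scaling target, detection calls or the number of pooled cultures. The probe set names belong to an array type other than the one in the design text, so gene symbols came from the platform annotation that lists them.

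Of 22690 probe sets, 64 controls were left out, and 20380 of the other 22626 had 1 gene symbol, 691 several and 1555 none. Symbols were updated to the RefSeq table of GRCm38.p6, which matched 20351. Each gene was represented by its brightest probe set by mean over the 8 arrays, and genes on chromosomes X and Y (410) or with another or no chromosome entry (28) were left out. Scaling, floor and counting rule are given with the results, and Python 3.11.15, numpy 2.4.6 and pandas 2.3.3 were used. The counting was tested on simulated data. Precision is limited by 1 array per group, and no test was run.

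Named were the 12 highest and 12 lowest measured ratios, the 6 brightest genes below the floor on 1 side, up to 5 counted members per list and direction, and the 6 brightest of each pattern. The comparison, the 36 gene lists and these rules were chosen with earlier results of these data known. Rsad2, Irf3, Irf7, Igf2, Sgce, Zfp36, Egr2, Fos, Egr1 and Cxcl1 were added after their values were seen, and Vim, Col1a1, Acta2, Tagln and the defining markers of other types served as cell type markers. A second probe set is mentioned for some genes where its ratio was clearly smaller or of the other sign, but not for all. Not mentioned above were further probe sets of Cenpf (0.61 against 1.56), Igf1 (0.78 against 1.36) and Aspn (-0.56 against -1.03). The same goes for Cp (1.81 against 3.03), Gata6 (1.61 against 2.82) and Slc2a3 (0.84 against 1.97), where the smaller ratios are bounds. Silence on a gene does not mean that its probe sets were alike. Alternatives were 3 other scalings, other floors, a pseudocount of 16, other choices of probe set, folds of 1.5 and 3 and a higher minimum signal.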

Additional observations from a re-analysis of the deposited data

Results flagged for a closer look

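Among the genes counted at rest, 8 were 2-fold or more apart in the opposite direction in the B-DNA pair, and this difference between the pairs was not tested. Ifi47 had a log2 ratio of double-mutant over WT cells of 1.90 at rest and -4.07 after B-DNA, with 245 in double-mutant cells and 4132 in WT cells on the B-DNA arrays. Pml, a gene of nuclear bodies that interferon induces, had 1.44 at rest and -1.96 after B-DNA, with 643 in double-mutant cells and 237 in WT cells at rest and 589 in double-mutant cells and 2289 in WT cells after B-DNA. The ratios were 2.06 and -1.16 for Sap30, 1.69 and -1.18 for Fndc3a, 1.15 and -1.36 for Lrrc18, 1.08 and -1.30 for Hic2, and 1.03 and -1.57 for Plekha4. In these 7 genes the WT signal was higher after B-DNA than at rest, for Fndc3a 2277 after B-DNA and 529.9 at rest. Foxc2, a transcription factor gene of mesenchyme, was the reverse case, at -1.38 at rest and 1.21 after B-DNA. It read 585 in double-mutant cells and 1523 in WT cells at rest, and 872 in double-mutant cells and 378 in WT cells after B-DNA.

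Genes of the Y chromosome, which are not among the autosomal genes, gave signal in double-mutant cells and next to none in WT cells. At rest Eif2s3y read 153 in double-mutant cells and 1.48 in WT cells, Kdm5d read 171 in double-mutant cells and 13.9 in WT cells, and Uty read 184 in double-mutant cells and 33.6 in WT cells.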

How the results depend on the processing

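No paired analysis was possible because each group has 1 array and the groups share only the replicate number 1. Of 507 higher and 520 lower genes as counted, 109 and 2211 were counted without further scaling of the deposited values, 967 and 802 with the floor at the 20th percentile, 275 and 346 with it at the 60th, 148 and 188 at 3-fold, and 1275 and 1074 at 1.5-fold. With a minimum of 4 times the floor 319 were higher and 389 lower. The counts stayed within 1.5 times of those reported with a common median (368 and 650), quantile normalization (492 and 585), the pseudocount (459 and 497), the mean over probe sets (401 and 418), probe sets without a shared-target suffix (497 and 510), and, chosen after seeing the data, the double-mutant B-DNA array in place of the mock array (589 and 511). Over 191 named genes and 1719 alternatives, 1291 log2 ratios moved by less than 0.38, the SD between the 2 double-mutant arrays, 427 moved by more, and 1 reversed. That was Ckm, 1.10 as reported and -0.12 with the double-mutant B-DNA array, and the cause was not tested. Of 324 alternative list medians, 271 moved by less than 0.38. Relative to all genes, 31 of 36 lists stayed on 1 side under the 3 other scalings, and the epithelial, neural, skeletal muscle, adipocyte and complement lists did not. Signals below the floor have no order, and 98 of the higher and 111 of the lower ratios are bounds for that reason.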
